A study of Mus musculus with 6 samples.

Results

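Mir33 and Mir378a are miRNA genes that lie inside introns of lipid regulators. Mir33 sits in Srebf2, which encodes SREBP2, the transcription factor that turns on cholesterol synthesis and uptake. Mir378a sits in Ppargc1b, which encodes PGC-1 beta, a coactivator of mitochondrial and lipogenic genes. Both mature arms of each hairpin were followed here, giving mmu-miR-33-5p, mmu-miR-33-3p, mmu-miR-378a-3p and mmu-miR-378a-5p. The choice went by their names, with earlier results of these data known. All 4 were among the 1546 mature miRNAs listed.

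The data are small RNA libraries, 1 per replicate, from livers of 3 mice on a normal diet (NC) and 3 mice on a high-fat diet (MAFLD). MAFLD is metabolic dysfunction-associated fatty liver disease. All animals were male C57BL/6 mice without a transgene or drug named in the labels, and the diets began at 8 weeks of age and ran for 16 weeks. The methods describe 6 mice per diet, do not say how 3 of them were taken for sequencing, and do not describe pooling, so the p-values measure only the spread between these libraries.

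A miRNA hairpin is cut into a 5p and a 3p arm, and usually one arm is loaded into an Argonaute protein while the other is degraded. miR-33-5p is the loaded arm of miR-33. It is known for repressing Abca1, the transporter that exports cholesterol to HDL, together with genes of fatty acid oxidation, so that its host and its own targets act on the same lipid pool. miR-378a-3p is the loaded arm of miR-378a and is abundant in muscle, fat and liver, where it is known to act on mitochondrial metabolism and on lipid and glucose handling.

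The mature sequences of both miR-33 arms are shown because pairing of bases 2 to 8, the seed, selects the targets, and the arms have different seeds. They come from RefSeq on build GRCm38.p6, the seed is in capitals, and 2 of the 4 members had an entry in the sequence table.
mmu-miR-33-5p: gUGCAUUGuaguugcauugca
mmu-miR-33-3p: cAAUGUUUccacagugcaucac
The 69-base hairpin is shown 5′ to 3′ with both arms in capitals, so that the loop and the pairing strands can be seen.
Mir33 hairpin: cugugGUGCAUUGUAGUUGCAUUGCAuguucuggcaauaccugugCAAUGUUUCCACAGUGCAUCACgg
Neither seed occurred at bases 2 to 8 of any other of the 1679 mature miRNAs in the table. The hairpin lies at chr15:82198122-82198190 on the plus strand, in the same direction as Srebf2 (ENSMUSG00000022463.8, chr15:82147181-82205379). It is intronic, in intron 16 of the 19-exon transcript Srebf2-201, 335 bp after the upstream exon of an intron of 1848 bp. Mir378a lies in intron 1 of Ppargc1b, also in the direction of its host.

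The deposited values are CPM, that is, reads of a miRNA divided by the library's reads on all listed miRNAs and brought to a common total. The libraries held between 1336935 and 4685712 such reads, so that 3 reads, the floor used here for detection, were 0.640 to 2.24 CPM. A single miRNA, miR-148a-3p, took the most reads in every library, with 71.4%, 63.3% and 48.5% in NC replicates 1 to 3 and 46.8%, 56.7% and 51.6% in MAFLD replicates 1 to 3. Because CPM is a share, the other miRNAs have less room where miR-148a-3p is high. The median log2 fold change (MAFLD minus NC) of the 501 miRNAs that averaged 1 CPM or more was 0.43 rather than 0, and 357 of the 501 lay above 0. The changes of the 4 members are therefore also given relative to this median, and miR-378a under other scalings.

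The 4 members spanned a wide range of levels in these livers. miR-378a-3p was abundant and placed between 20 and 25 among the miRNAs of each library, miR-378a-5p placed between 136 and 186, and the miR-33 arms placed between 306 and 698. The fold of miR-378a-3p over miR-33-5p ran from 1598 to 6945 within a library, the highest resting on 1 read of miR-33-5p. In MAFLD livers both arms of miR-378a had higher mean values than in NC livers, by 1.79-fold for the 3p and 2.27-fold for the 5p arm, but neither passed the test adjusted over all miRNAs. The miR-33 arms rested on 0 to 12 reads a library, and no difference between the diets was detectable at this depth.

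miR-33-5p, the arm that represses Abca1, was read 2, 1 and 3 times in NC replicates 1 to 3 and 8, 11 and 1 times in MAFLD replicates 1 to 3. As levels these are 0.784, 0.637 and 2.24 CPM in NC and 3.00, 2.35 and 0.652 CPM in MAFLD. MAFLD replicate 3 lay at the bottom of the NC range, and the groups overlapped. The means were 1.22 ± 0.888 CPM (SD, n = 3) in NC and 2.00 ± 1.21 CPM (SD, n = 3) in MAFLD. The log2 fold change, computed on log2(CPM + 1) here and below, was 0.41 with a 95% interval from -0.90 to 1.71 (limma, adjusted p = 0.750), which is -0.02 relative to the median of all tested miRNAs. Pooled over libraries, 6 of 5455900 NC reads and 20 of 8885739 MAFLD reads were miR-33-5p, a ratio of 2.05 with an exact interval from 0.793 to 6.23 that covers counting error only. The interval thus runs from a lower level of miR-33-5p in MAFLD to one several fold higher.

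miR-33-3p, the other arm of the hairpin, was read 3, 0 and 5 times in NC and 7, 12 and 6 times in MAFLD. The 0 in NC replicate 2 allows a level of up to 1.91 CPM by the floor of 3 reads, and up to 2.45 CPM by the Wilson interval. The levels were 1.18, 0 and 3.74 CPM in NC and 2.63, 2.56 and 3.91 CPM in MAFLD, so that NC replicate 3 reached the MAFLD range and the groups overlapped. The means were 1.64 ± 1.91 CPM (SD, n = 3) and 3.03 ± 0.761 CPM (SD, n = 3), and the log2 fold change was 0.87 with a 95% interval from -0.49 to 2.24 (limma, adjusted p = 0.451), which is 0.44 above that median. The pooled ratio was 1.92, with an exact interval from 0.839 to 4.92. In a fit that required a mean of 10 CPM neither miR-33 arm was tested.

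miR-378a-3p was measured with 2677 to 17580 reads in every library, and its levels were 1972, 1706 and 4093 CPM in NC replicates 1 to 3 and 5664, 3752 and 4526 CPM in MAFLD replicates 1 to 3. NC replicates 1 and 2 were low and close to each other. NC replicate 3 was above MAFLD replicate 2, so the groups overlapped, and the counting intervals of the 6 libraries did not overlap each other. The means were 2590 ± 1308 CPM (SD, n = 3) in NC and 4647 ± 962 CPM (SD, n = 3) in MAFLD. The log2 fold change was 0.93 (SE 0.35, 95% interval 0.19 to 1.68), and limma gave an unadjusted p = 0.0169 and, over all 501 miRNAs, an adjusted p = 0.208. It was 0.51 above the median of all tested miRNAs. The exact permutation test over the 6 libraries gave p = 0.2, where 3 against 3 cannot go below 0.1.

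miR-378a-5p, the arm that is mostly degraded, was read 40, 23 and 30 times in NC and 146, 140 and 54 times in MAFLD. Its levels were 15.7, 14.7 and 22.4 CPM in NC and 54.8, 29.9 and 35.2 CPM in MAFLD. All 3 MAFLD libraries were above all 3 NC libraries. The means were 17.6 ± 4.23 CPM (SD, n = 3) and 39.9 ± 13.1 CPM (SD, n = 3), and the log2 fold change was 1.12 (SE 0.45, 95% interval 0.16 to 2.07), 0.69 above the median of all tested miRNAs. The adjusted p was 0.212 by limma, and the two-sided exact permutation p was 0.1, the smallest that 3 against 3 can give. In these bulk livers, more cells of a type and more RNA per cell cannot be told apart.

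**Figure D1:**
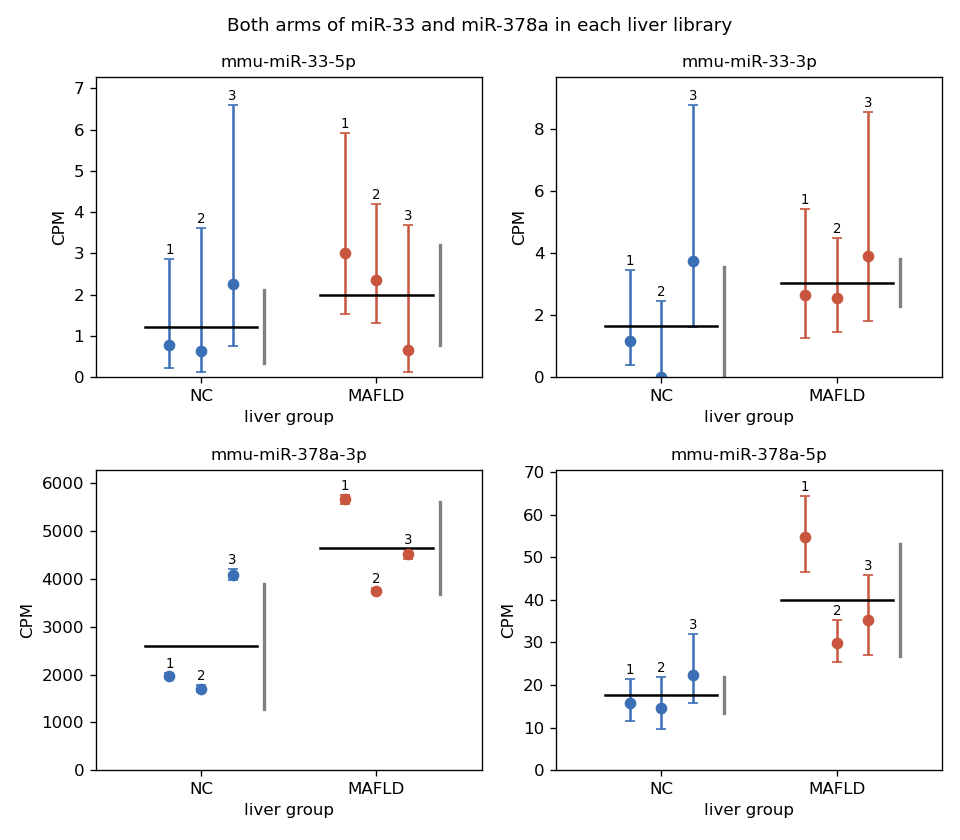
Levels of the 4 members (CPM, linear axes from 0) in NC (blue) and MAFLD (red) livers, with the replicate number at each point, 95% Wilson counting intervals as coloured bars, the group mean as a black line and 1 SD either side as a gray bar, cut at 0. The miR-33 intervals overlap between the groups, while for miR-378a-3p the blue point at 4093 CPM, NC replicate 3, lies inside the red range of 3752 to 5664 CPM.

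Of the 4 members, 0 passed an adjusted p under 0.05, beside 1 of 501 miRNAs tested (0.200%). Both miR-378a arms had an unadjusted p under 0.05 with a higher level in MAFLD, as did 67 of 501 miRNAs (13.4%). The miR-378a-5p groups were fully apart with MAFLD higher, as were those of 76 of 501 miRNAs (15.2%). Higher values of this kind were thus not particular to miR-378a in these 6 libraries.

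The result for miR-378a turned on NC replicate 3, whose levels of both arms were the highest of the NC libraries. Without that library, the log2 fold change of miR-378a-3p was 1.32 (limma, adjusted p = 0.00334) and that of miR-378a-5p was 1.29 (limma, adjusted p = 0.0370), and both passed. In the same fit 95 of 501 miRNAs passed with a higher level in MAFLD (19.0%), and the median of all tested miRNAs was 0.67. Other measures also differed along this split. The summed level of 5 brain miRNAs, which serve as markers of another tissue, was 366 and 575 CPM in NC replicates 1 and 2, 9.72 CPM in NC replicate 3 and 5.34 to 15.6 CPM in MAFLD. The share of miR-148a-3p was highest in the same 2 NC libraries. The part of these differences in the miR-378a result was not tested.

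Relative to miR-122-5p, the miRNA that hepatocytes express in great abundance, miR-378a separated the diets. This rests on a single reference. On CPM, the log2 fold change of miR-122-5p was 0.14. Other hepatocyte miRNAs had 0.93 (miR-122-3p), 0.43 (miR-192-5p) and 0.84 (miR-194-5p), beside 0.93 for miR-378a-3p. Ratios to these other miRNAs were not tested, so a rise per hepatocyte is not shown. In every NC library miR-378a-3p had between 31.3 and 48.1 reads per 1000 reads of miR-122-5p, and in every MAFLD library between 66.8 and 80.3. By this measure NC replicate 3, at 48.1, lay beside NC replicate 1, at 46.8, and no longer among the MAFLD livers. The means were 42.1 ± 9.31 (SD, n = 3) and 71.7 ± 7.49 (SD, n = 3) reads per 1000, a ratio of 1.70 (exact permutation p = 0.1, the smallest possible). The log2 fold change of miR-378a-3p on this scale was 0.79 (limma, adjusted p = 0.0497), just inside the threshold. The median of all tested miRNAs on this scale was 0.31, and miR-378a-3p lay 0.48 above it.

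miR-378a-5p had 0.372, 0.269 and 0.264 reads per 1000 reads of miR-122-5p in NC and 0.777, 0.541 and 0.519 in MAFLD, so the groups were apart for this arm too. Its log2 fold change on this scale was 0.98 (limma, adjusted p = 0.0836). On the same scale 24 of 500 miRNAs passed with a higher level (4.80%), and the groups of 120 of 500 were apart with MAFLD higher (24.0%). The level of miR-122-5p itself was 42159 to 85150 CPM in NC, highest in NC replicate 3, and 55196 to 70527 CPM in MAFLD. The miR-33 arms stayed overlapping between the groups, with at most 0.0577 reads per 1000.

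**Figure D2:**
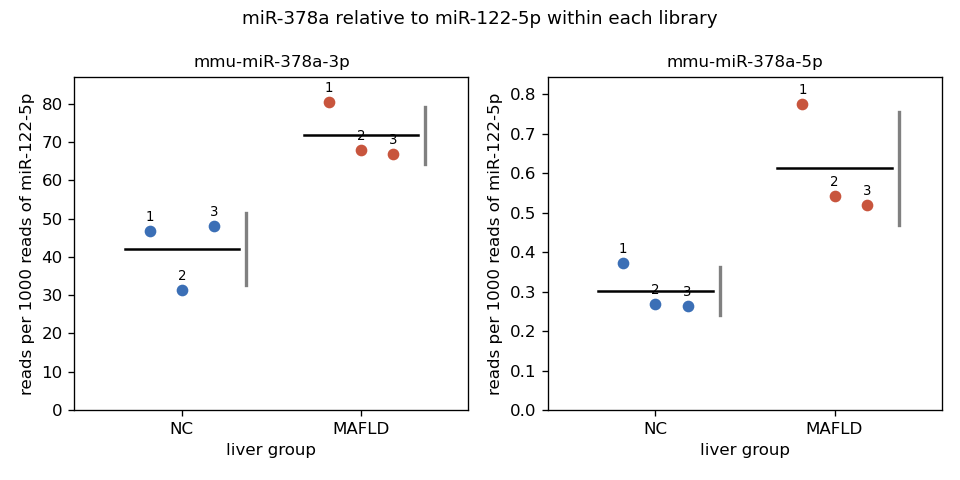
Reads of each miR-378a arm per 1000 reads of miR-122-5p in the same library (linear axes from 0), with replicate numbers, the group mean as a black line and 1 SD either side as a gray bar. The 3 MAFLD livers lie above the 3 NC livers in both panels, with a gap for miR-378a-3p from 48.1 to 66.8.

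Which arm of each hairpin was present did not differ detectably between the diets. Arm ratios were computed with 1 CPM added to each arm. The log2 ratio of miR-33-5p to miR-33-3p was then -0.29, 0.71 and -0.55 in NC and 0.14, -0.09 and -1.57 in MAFLD. The difference was -0.47 with a 95% interval from -1.97 to 1.04 (limma, adjusted p = 0.776). NC replicate 2 had 0 reads of miR-33-3p, so its value of 0.71 exists only through the added 1 CPM. Over all libraries 26 reads were the 5p and 33 the 3p arm, so that the 5p arm made up 44.1% of them (Wilson interval 32.2 to 56.7%), and the order of the arms was not resolved. The miR-378a hairpin was strongly one-sided, and its 5p reads were 0.813% of the reads of both arms (Wilson interval 0.741 to 0.893%). Its log2 ratio of 5p to 3p was -6.89, -6.77 and -7.45 in NC and -6.67, -6.93 and -6.97 in MAFLD. The difference was 0.18 with a 95% interval from -0.45 to 0.81 (limma, adjusted p = 0.777), so the change of the 5p arm was not shown to differ from that of the 3p arm. Of the 105 hairpins whose arms both averaged 1 CPM or more, 0 passed (0%).

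The levels of miR-33-5p and miR-378a-3p, the arms known as the loaded ones, were also set against each other within each library. With 1 CPM added to each level, the log2 ratio of miR-33-5p to miR-378a-3p was -10.15 ± 0.14 (SD, n = 3) in NC. It was -10.67 ± 0.67 (SD, n = 3) in MAFLD. The added 1 CPM is of the size of the miR-33-5p levels, so these values understate the fold between the 2 miRNAs and depend on it. The difference of -0.53 was smaller than the MAFLD spread (exact permutation p = 0.2), and the groups overlapped. Without MAFLD replicate 3, where miR-33-5p had 1 read, the difference was -0.15.

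Mouse has other miR-378 genes, and 3 of them were listed. Mir378b (ENSMUSG00000092985.1) lies at chr11:88352773-88352864 on the plus strand, opposite Msi2. Mir378c (ENSMUSG00000099036.1) lies at chr14:46954830-46954928 on the minus strand, opposite Samd4. Mir378d (ENSMUSG00000098756.1) lies at chr10:126710282-126710391 on the minus strand, where no other gene is annotated. The mature forms of miR-378b and miR-378c share a run of 19 bases, and each shares a run of 14 bases with miR-378d. How reads that match several such names were assigned is not given in the sources used here, so the levels of these names are uncertain.

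miR-378d was 395, 379 and 610 CPM in NC and 992, 715 and 972 CPM in MAFLD, with the groups apart and a log2 fold change of 0.97 (limma, adjusted p = 0.208). miR-378c was 383, 354 and 842 CPM in NC and 1171, 792 and 924 CPM in MAFLD, with a log2 fold change of 0.97 (limma, adjusted p = 0.212). In miR-378c, as in miR-378a-3p, NC replicate 3 was above MAFLD replicate 2. miR-378b was 40.0, 58.6 and 137 CPM in NC and 266, 81.3 and 151 CPM in MAFLD, with a log2 fold change of 1.10 (limma, adjusted p = 0.275) and overlapping groups. None of the 3 passed the adjusted threshold on CPM, and their median log2 fold change was 0.97 beside 0.43 over all tested miRNAs. Relative to miR-122-5p, miR-378c (0.82, limma, adjusted p = 0.0497) and miR-378d (0.83, limma, adjusted p = 0.0477) passed. Among all miRNAs tested relative to miR-122-5p, 24 of 500 passed with a higher level (4.80%), and the median log2 fold change was 0.31. On that scale miR-378b did not pass (0.96, limma, adjusted p = 0.103).

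**Figure D3:**
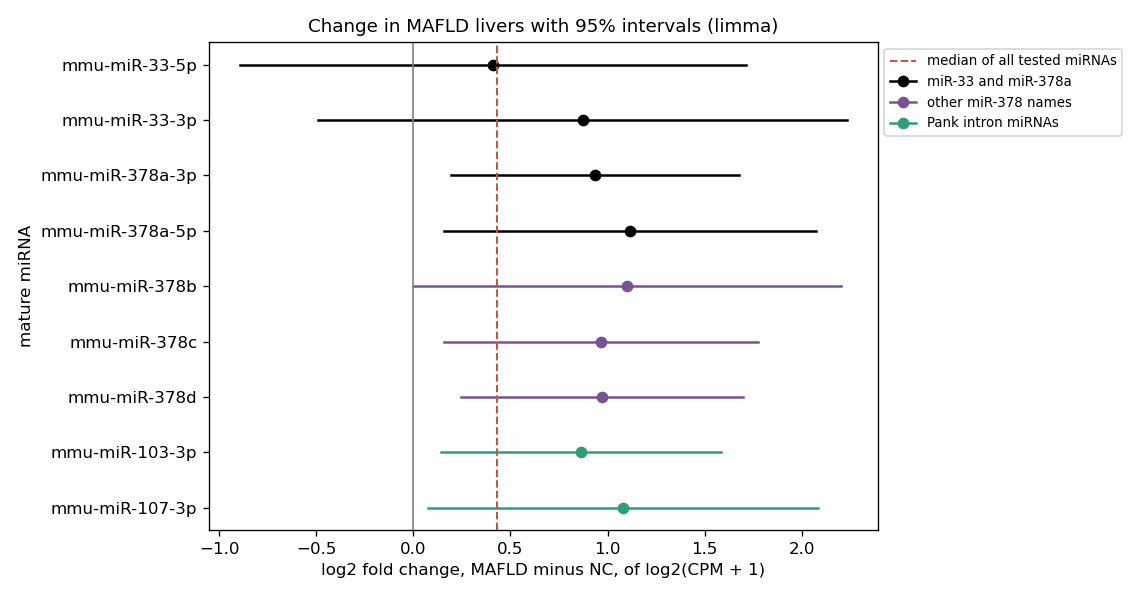
Log2 fold change (MAFLD minus NC) on log2(CPM + 1) with 95% limma intervals for the 4 members (black), the other miR-378 names (purple) and the miRNAs of Pank introns (green), with the median of all tested miRNAs as a dashed line at 0.43. The miR-33 intervals cross 0, and the miR-378a intervals start at 0.16 and 0.19, below the dashed line.

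Within a library miR-378c kept a nearly fixed proportion to miR-378a-3p. It had 19.4 to 21.1% as many reads as miR-378a-3p across all 6 libraries. miR-378d varied more, from 14.9 to 22.2%, and miR-378b from 2.03 to 4.69%. miR-378a-5p ran from 0.548 to 0.967% of the 3p reads, lowest in NC replicate 3. The 2 genes of miR-378a-3p and miR-378c lie on different chromosomes, and whether the fixed proportion is one of transcripts or of read assignment was not tested.

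**Figure D4:**
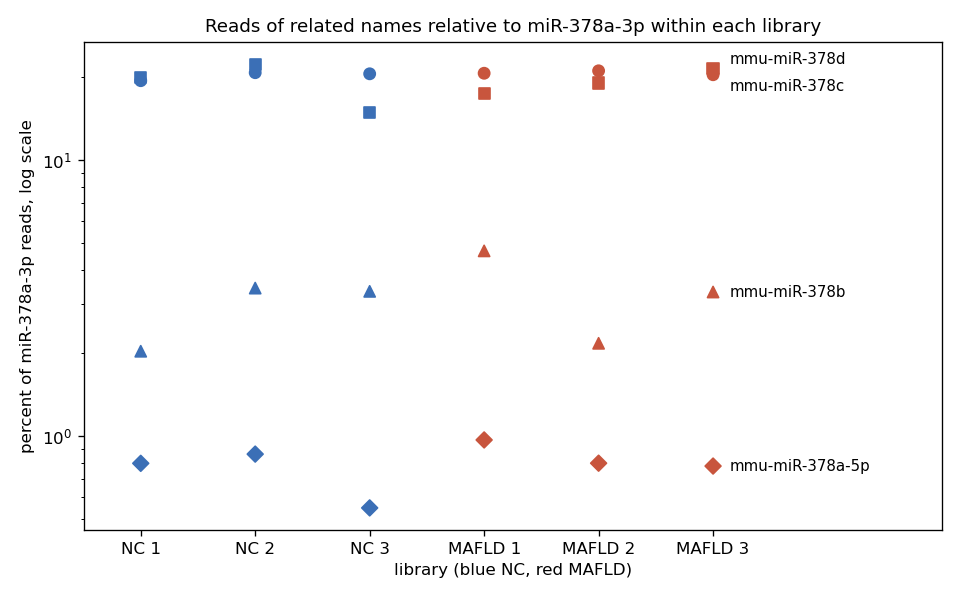
Reads of each related name as a percentage of miR-378a-3p reads in the same library (log axis), with NC libraries in blue and MAFLD libraries in red. miR-378c (circles) stays between 19.4 and 21.1% in all 6 libraries, and the other names vary more.

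The miRNAs whose log2(CPM + 1) was most like each member over the 6 libraries are given as a description, among 237 or 238 candidates with a mean of at least 10 CPM that share libraries, depth and total. For miR-378a-3p they were miR-378c (Pearson r = 0.999, Spearman rho = 1), miR-30c-2-3p (r = 0.989, rho = 1) and miR-25-3p (r = 0.988, rho = 0.943). For miR-378a-5p they were miR-34a-5p (r = 0.992, rho = 1), let-7d-5p (r = 0.985, rho = 0.943) and miR-20a-5p (r = 0.984, rho = 1). Its own 3p arm followed miR-378a-5p with r = 0.925. For miR-33-5p they were miR-1948-5p (r = 0.916), miR-181d-5p (r = 0.914) and miR-455-5p (r = 0.854), and for miR-33-3p they were miR-574-5p (r = 0.952), let-7f-1-3p (r = 0.930) and miR-676-3p (r = 0.929). The miR-33 correlations rest on 0 to 12 reads a library and are weak as descriptions. The arms of miR-33 followed each other with r = 0.506.

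miRNAs of another set of metabolic introns were compared, those of the pantothenate kinase genes Pank1, Pank2 and Pank3, which make coenzyme A. Of 5 such names, 2 were abundant enough to be tested. miR-103-3p was 415, 379 and 622 CPM in NC and 995, 785 and 757 CPM in MAFLD, with the groups apart and a log2 fold change of 0.86 (limma, adjusted p = 0.212). miR-107-3p had a log2 fold change of 1.08 (limma, adjusted p = 0.247) with overlapping groups. These values were close to those of miR-378a.

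Markers of the tissue and of other cells were summed in each library, since miR-378a is also abundant in muscle and fat. All 4 hepatocyte miRNAs were present, at 102722 to 167007 CPM in NC and 147868 to 176512 CPM in MAFLD. The 7 muscle miRNAs summed to 52.2 to 242 CPM in NC and 37.5 to 230 CPM in MAFLD, with 6 listed and miR-208a-3p, a heart marker, at 0 in every library. The muscle sums overlapped between the diets. The 3 brown fat linked miRNAs summed to 21.7 to 41.1 CPM in NC and 44.3 to 66.4 CPM in MAFLD. Endothelial miRNAs were 4710 to 6587 CPM and 7659 to 10155 CPM, leukocyte miRNAs 135 to 247 CPM and 190 to 353 CPM, stellate and mesenchymal miRNAs 12612 to 30033 CPM and 19775 to 26950 CPM, and blood miRNAs 651 to 1324 CPM and 485 to 1142 CPM, NC first. The brown fat linked and endothelial sums were higher in every MAFLD library than in every NC library. Most of the brown fat linked sum was miR-365-3p, with a log2 fold change of 0.84, while that of miR-193b-3p was -0.35. Most of the endothelial sum was miR-126a-3p, whose groups were apart, while those of miR-126a-5p overlapped. Among single miRNAs, the groups of 76 of 501 were apart with MAFLD higher (15.2%). The part of any of these cell types in the miR-378a values was not tested.

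Other scalings lowered the miR-378a change without turning its direction. For miR-378a-3p, the log2 fold change was 0.59 when miR-148a-3p was left out of the total, 0.47 after median-ratio scaling and with edgeR, 0.44 with DESeq2 and 0.22 after quantile normalization, and none of these passed. For miR-378a-5p the same settings gave 0.80, 0.67, 0.72, 0.70 and 0.70. Median-ratio scaling brought the median of all tested miRNAs to 0.04, and miR-378a-3p was then 0.42 above it. Over all 18 alternatives miR-378a-3p lay 0.11 to 0.78 above the median of its own fit, and miR-378a-5p 0.52 to 0.96 above.

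**Figure D5:**
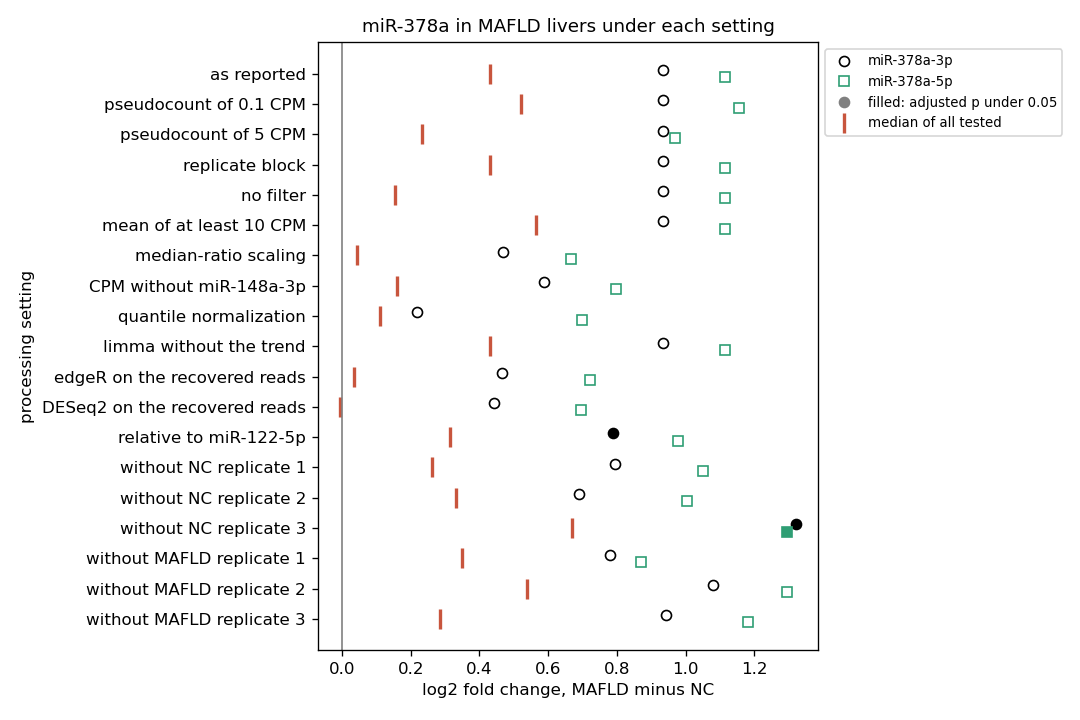
Log2 fold change (MAFLD minus NC) of miR-378a-3p (circles) and miR-378a-5p (squares) under each processing setting, filled where the adjusted p was under 0.05, with the median of all tested miRNAs as a red tick. Both arms lie above 0 and above the tick in every row, and the filled symbols are at the setting without NC replicate 3 and, for the 3p arm, at the values relative to miR-122-5p.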

How the data were processed

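Liver small RNA of 3 NC and 3 MAFLD mice was analysed from 1 table of mature miRNAs. The deposited values are CPM, which the authors scaled to the reads on all listed miRNAs of each library. The submitters' processing notes name FastQC, cutadapt, Bowtie, edgeR and GRCm38, without roles. The methods state no sequencing test, so groups were compared with limma 3.58.1 (trend, two-sided, Benjamini-Hochberg, R 4.3.3) on log2(CPM + 1) for those 501 miRNAs whose mean reached 1 CPM. Arm ratios, with 1 CPM added to each arm, were tested likewise over 105 hairpins. Exact permutation tests used scipy 1.17.1.

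Dividing CPM by the value of 1 read gave whole reads within 0.02 for 100% of values. These reads served for Wilson 95% intervals and for edgeR 4.0.16 and DESeq2 1.42.0 as alternatives. No pair of libraries agreed within sampling noise (chi-square per degree of freedom at least 68.8). The labels also describe HepG2 culture, but name every sample as liver.

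The miRNAs named are the members, other miR-378 names, miRNAs of Pank introns, the top miRNA of each library, cell type markers such as miR-122-5p and miR-208a-3p, and the 3 miRNAs most like each member. A further list is not reported here. The members and lists were chosen with earlier results of these data known. The alternatives were pseudocounts of 0.1 and 5 CPM, no filter or 10 CPM, median-ratio scaling, CPM without miR-148a-3p, quantile normalization, values relative to miR-122-5p, limma without the trend, a replicate block, and each library left out. The fits were tested on simulated data. Positions come from GENCODE M21, and sequences from RefSeq. miR-378a sequences are not shown here. The table names no build, so positions only place the genes.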

Additional observations from a re-analysis of the deposited data

How the results depend on the processing

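Both miR-33 arms and both miR-378a arms had a log2 fold change above 0 under all alternatives run, 17 for each miR-33 arm and 18 for each miR-378a arm. The miR-33-5p values ran from 0.15 to 0.79 and the miR-33-3p values from 0.31 to 1.96, and none passed. Leaving out one library gave 0.69 to 1.32 for miR-378a-3p and 0.87 to 1.30 for miR-378a-5p, and both passed only without NC replicate 3. miR-378a-3p also passed relative to miR-122-5p, at 0.79. With one library left out, the miR-33 arm ratio ran from -0.79 to 0.067 and turned sign without MAFLD replicate 3, and it reached -1.33 with a pseudocount of 0.1 CPM. The miR-378a arm ratio ran from -0.026 to 0.31 and turned sign without NC replicate 3. The log2 ratio of miR-33-5p to miR-378a-3p ran from -0.80 without MAFLD replicate 2 to -0.15 without MAFLD replicate 3, and was -0.30 with a pseudocount of 0.1 CPM (exact permutation p = 0.9). The number of miRNAs past the adjusted p, 1 as reported, was 11 with no filter, 2 with median-ratio scaling, 2 without miR-148a-3p, 28 with DESeq2, 0 with limma without the trend (74 at an unadjusted p under 0.05) and 0 to 114 with one library left out. The 114 came without NC replicate 3, 3 without MAFLD replicate 3, and 0 without NC replicate 1, NC replicate 2, MAFLD replicate 1 or MAFLD replicate 2 (56, 40, 41 and 89 at an unadjusted p under 0.05). The causes were not tested.

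With the replicate number as a replicate block, 5 miRNAs passed, miR-378a-3p had an adjusted p of 0.230 and miR-378a-5p of 0.242 (limma). The numbers belong to different mice, and same-numbered libraries did not deviate together (correlations 0.012, -0.020 and -0.046). At this depth, levels under 0.640 to 2.24 CPM cannot be told from 0, which limits both miR-33 arms.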
